A study of Mus musculus with 12 samples.

Results

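The genes described here, 35 in number, carry out or control fatty acid oxidation: the enzymes and carriers of mitochondrial and peroxisomal beta-oxidation, and targets of the nuclear receptor PPAR alpha. They were chosen by symbol, as genes of this pathway, with no value used as a rule. Earlier results of these data were known when the list was made. All 35 occurred in the deposited table of 55484 genes, each once, and all 35 were among the 12847 genes tested. RNA had been sequenced from small intestine of Mus musculus in 12 libraries, 3 per group. The groups were MSC+Mel (mesenchymal stem cell and melphalan, named in that order), Mel+MSC (melphalan and mesenchymal stem cell, in that order), Melphalan (melphalan alone) and Control (wild type, labelled as control). Melphalan is an alkylating drug that cross-links DNA. The cells of both combined groups were human umbilical cord-derived mesenchymal stem cells, per the series title. The labels state neither strain, sex, age, dose, route, time of sampling nor segment of intestine, and they do not say whether the word order of a combined group is the order of giving. They also do not say that each library is 1 animal, so the p-values measure only how far these libraries vary, and that variation may be technical. There was no group given cells alone, and every combined library also carried melphalan.

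As background, long-chain fatty acids enter the mitochondrion as carnitine esters, made by Cpt1a, carried by Slc25a20 and released by Cpt2. A repeating spiral of dehydrogenases, hydratases and thiolases then shortens them to acetyl-CoA. Peroxisomes shorten very long and branched chains and, in the liver, bile acid side chains. PPAR alpha, bound to RXR, senses fatty acids and turns on genes of both routes. In the small intestine these genes are active mainly in enterocytes, the absorptive cells, which meet dietary fat and burn or re-export it.

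PPAR alpha with RXR binds a direct repeat of the letters AGGTCA with 1 base between the copies, AGGTCANAGGTCA, called DR1. Promoter windows of 300 bases (250 before to 50 after each RefSeq start, GRCm38.p6) were on hand for 29 of the 35 genes, in 32 windows. Both strands were searched. DR1 with at most 2 mismatches occurred in 5 of the 32 windows (15.6%), against 3.86% of 32851 mouse windows of that length, and the exact letters occurred in 0 of the 32, against 0.0396% of all. A single copy, AGGTCA, which a DR1 match can contain, occurred in 5 windows (15.6%), against 16.3% of all. The DR1 matches lay before or just after starts of Acox2, Creb3l3, Slc25a20, Plin2 and Etfa. These counts are small, and a match is a description of letters, not of binding.
The windows of 4 of the genes that carry a match to DR1 or to the single copy are shown from RefSeq. They run 5′ to 3′ on the gene's strand, from 250 bases before the start to 30 after it. Plin2, Etfa, Acadm and Acadvl also carry a match and are not shown. Capitals mark the DR1 match with 2 mismatches in Acox2 (chr14:8258810-8259089, minus strand, bases 10 to 22 counted from the start), in Creb3l3 (chr10:81092562-81092841, minus strand, before the inner of its RefSeq starts, bases -209 to -197) and in Slc25a20 (chr9:108661886-108662165, plus strand, bases 7 to 19). In Cpt1a (chr19:3323051-3323330, plus strand) they mark the single copy, read as its reverse complement, at bases -94 to -89.
Acox2: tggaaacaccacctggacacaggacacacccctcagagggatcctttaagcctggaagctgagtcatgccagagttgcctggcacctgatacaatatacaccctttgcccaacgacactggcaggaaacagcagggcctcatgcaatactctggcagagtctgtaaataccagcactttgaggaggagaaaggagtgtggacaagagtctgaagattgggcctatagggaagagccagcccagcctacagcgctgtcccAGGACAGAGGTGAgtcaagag
Creb3l3: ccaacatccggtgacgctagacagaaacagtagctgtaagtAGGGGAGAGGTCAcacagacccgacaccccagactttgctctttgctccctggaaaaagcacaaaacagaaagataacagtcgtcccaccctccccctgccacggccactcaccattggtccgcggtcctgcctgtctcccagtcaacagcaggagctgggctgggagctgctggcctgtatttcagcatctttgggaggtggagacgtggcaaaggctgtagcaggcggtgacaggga
Slc25a20: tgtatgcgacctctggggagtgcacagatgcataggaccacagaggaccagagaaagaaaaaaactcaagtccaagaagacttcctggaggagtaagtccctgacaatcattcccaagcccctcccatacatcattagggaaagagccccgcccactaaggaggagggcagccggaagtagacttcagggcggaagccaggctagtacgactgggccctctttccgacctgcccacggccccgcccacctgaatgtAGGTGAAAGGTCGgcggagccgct
Cpt1a: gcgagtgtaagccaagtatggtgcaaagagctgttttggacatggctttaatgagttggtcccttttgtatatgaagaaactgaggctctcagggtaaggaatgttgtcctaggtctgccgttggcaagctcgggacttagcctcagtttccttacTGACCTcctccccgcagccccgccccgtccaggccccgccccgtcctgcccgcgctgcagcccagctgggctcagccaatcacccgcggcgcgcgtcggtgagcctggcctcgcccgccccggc

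Levels were deposited as FPKM from Cuffnorm, fragments scaled to transcript length and for the size of the library, so levels of different genes are per length. How Cuffnorm set the library size is not stated here. The FPKM of a library summed to 516851 to 557743 in MSC+Mel, 520892 to 782269 in Mel+MSC, 584241 to 796980 in Melphalan and 536360 to 710451 in Control, and the read depth is unknown. The tissue label held against enterocyte markers: Sis and Alpi, brush border enzymes of the enterocyte, were at 1026 to 3247 and at 124 to 539 FPKM over the 12 libraries. Alb of the liver stayed at 0.177 FPKM or less, and Pnlip of the pancreas was at 0 in every library. Not every marker listed for those organs was near 0. Apoa2, listed for the liver, was at 1.11 to 5.15 FPKM, and Cela1, listed for the pancreas, was at 9.62 to 33.8 FPKM. Differences were fitted on log2(FPKM + 1) with limma over all 12 libraries, and a gene was called at a Benjamini-Hochberg adjusted p under 0.05 over all 12847 genes. A difference is the first-named group minus the second, and this scale understates the change of genes near 1 FPKM.

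Most of the 35 genes were abundant. Hadh, which oxidises hydroxyacyl-CoA in the mitochondrial spiral, led with a mean of 516 FPKM over the 12 libraries, above 98.5% of the genes tested. Abcd3, a peroxisomal membrane transporter of fatty acyl-CoA, followed with 195 FPKM, and Etfb, a subunit of the flavoprotein that carries electrons from the dehydrogenases, with 187 FPKM. The lowest levels were those of Cyp4a10, an omega-hydroxylase of fatty acids, at 1.20 FPKM and of Acox2, the peroxisomal oxidase of branched chains and bile acid intermediates, at 3.88 FPKM. Those 2 genes passed the filter on low values through the treated libraries: Acox2 was under 1 FPKM in every Control library, and Cyp4a10 reached 1 FPKM in only 5 of 12 libraries. The receptor itself, Ppara, was the fourth lowest, at 10.3 FPKM. The mean of the group was highest in MSC+Mel for 11 genes, in Mel+MSC for 4, in Melphalan for 19 and in Control for 1.

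**Figure D1:**
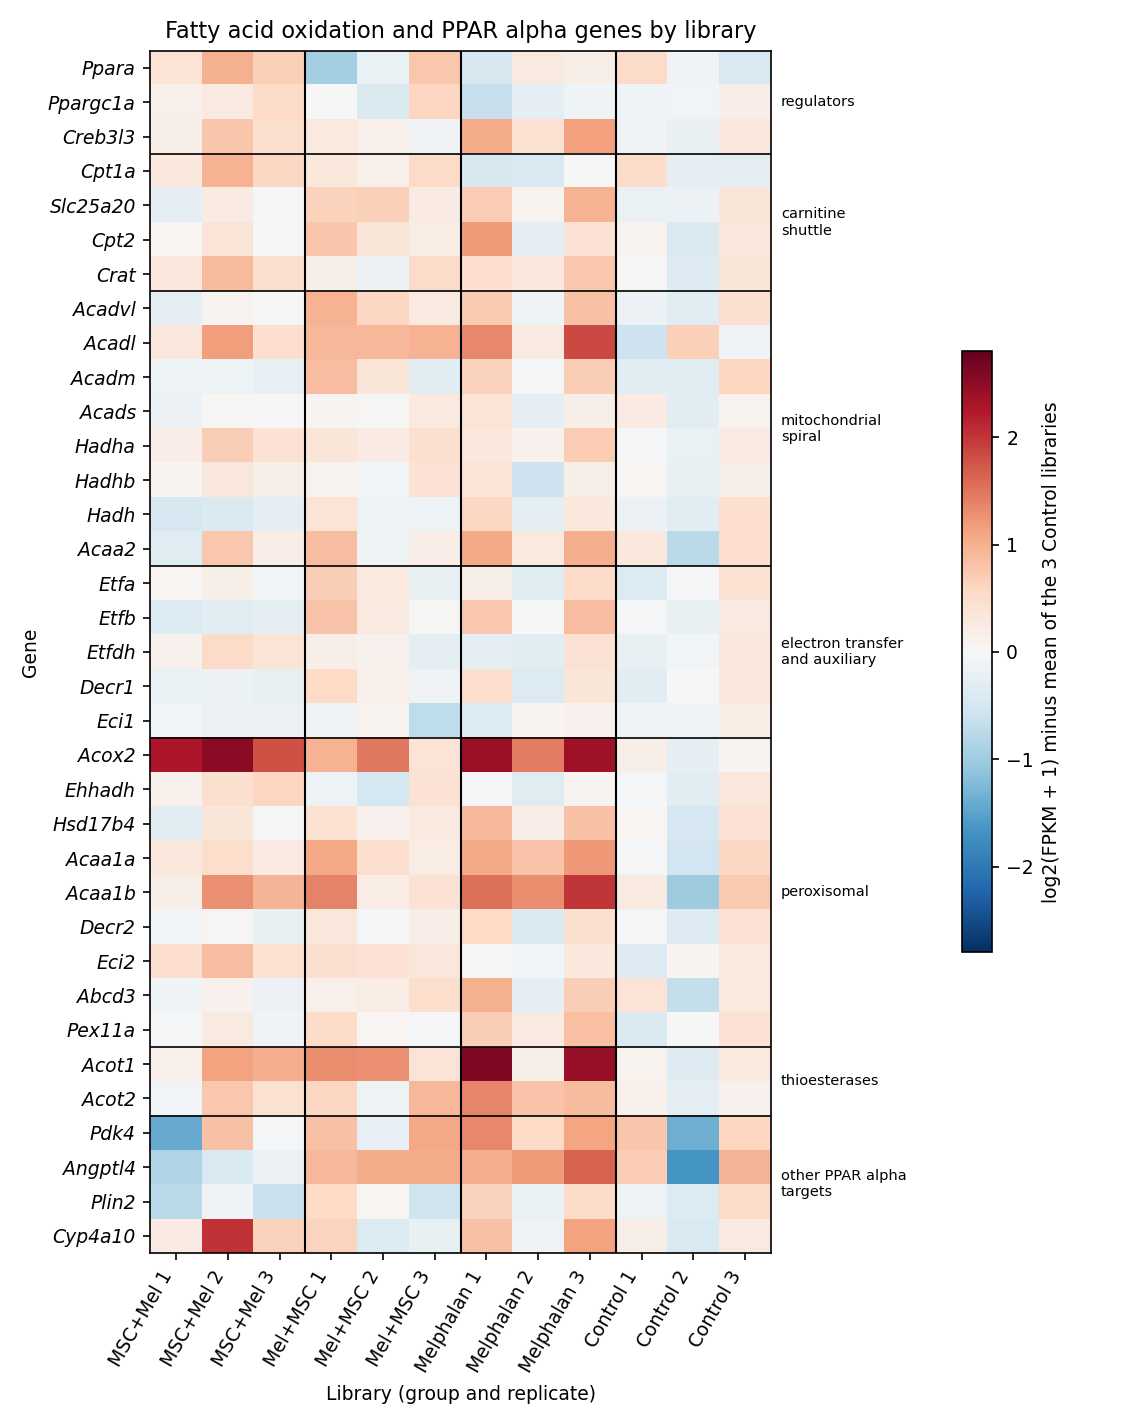
Each row is 1 of the 35 genes and each column 1 library. Colour gives log2(FPKM + 1) minus the mean of the 3 Control libraries, and for Acox2 every library of MSC+Mel, Mel+MSC and Melphalan is above every Control library.

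Melphalan against Control asks what the drug alone did. Acox2 rose and was the only one of the 35 genes called, 1 of 35 (2.86%), against 1.33% of all genes tested, or 0.498% counting higher calls alone. Acox2 passed the filter on low values only through treated libraries, so this call describes Acox2 and not the list. It had 7.52, 3.36 and 7.37 FPKM in Melphalan libraries, against 0.809, 0.363 and 0.712 FPKM in Control libraries, with no overlap. The difference was 2.07 on the log2 scale (SE 0.33, adjusted p = 0.0187). Its call rested on single libraries: the adjusted p was 0.0858 without Control replicate 1, 0.0897 without Control replicate 2 and 0.0751 without Melphalan replicate 3. It was 0.0597 with no filter on low values and 0.126 in a fit of those 2 groups alone, and 0.00119 to 0.126 over all alternatives. Acox2 (ENSMUSG00000021751) lies at chr14:8225511-8259353 on the minus strand (GRCm38, GENCODE M21), and its shown window holds a DR1 match.

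The other 34 genes did not pass the adjusted threshold, but most lay on the higher side. Of the 35, 28 (80.0%) had a fitted difference above 0, against 52.4% of all genes tested, and the median was 0.48, against 0.028 over all genes. An unadjusted p under 0.05 was reached by 11 of the 35 (31.4%), all of them higher, where 8.81% of all genes were higher at that level. Libraries did not overlap for 6 genes that were higher (17.1%, against 8.82% of all genes) and for 1, Ppargc1a, that was lower (2.86%, against 10.7%). In bulk tissue, a different number of cells of a type and a different amount of RNA per cell cannot be told apart. Scaling each library to the same FPKM sum, tried after the data were seen, moved the median of all genes to -0.17 and that of the 35 genes to 0.24, with 22 of 35 above 0, and with quantile normalization the 35 genes had a median of 0.23, with 23 above 0.

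**Figure D2:**
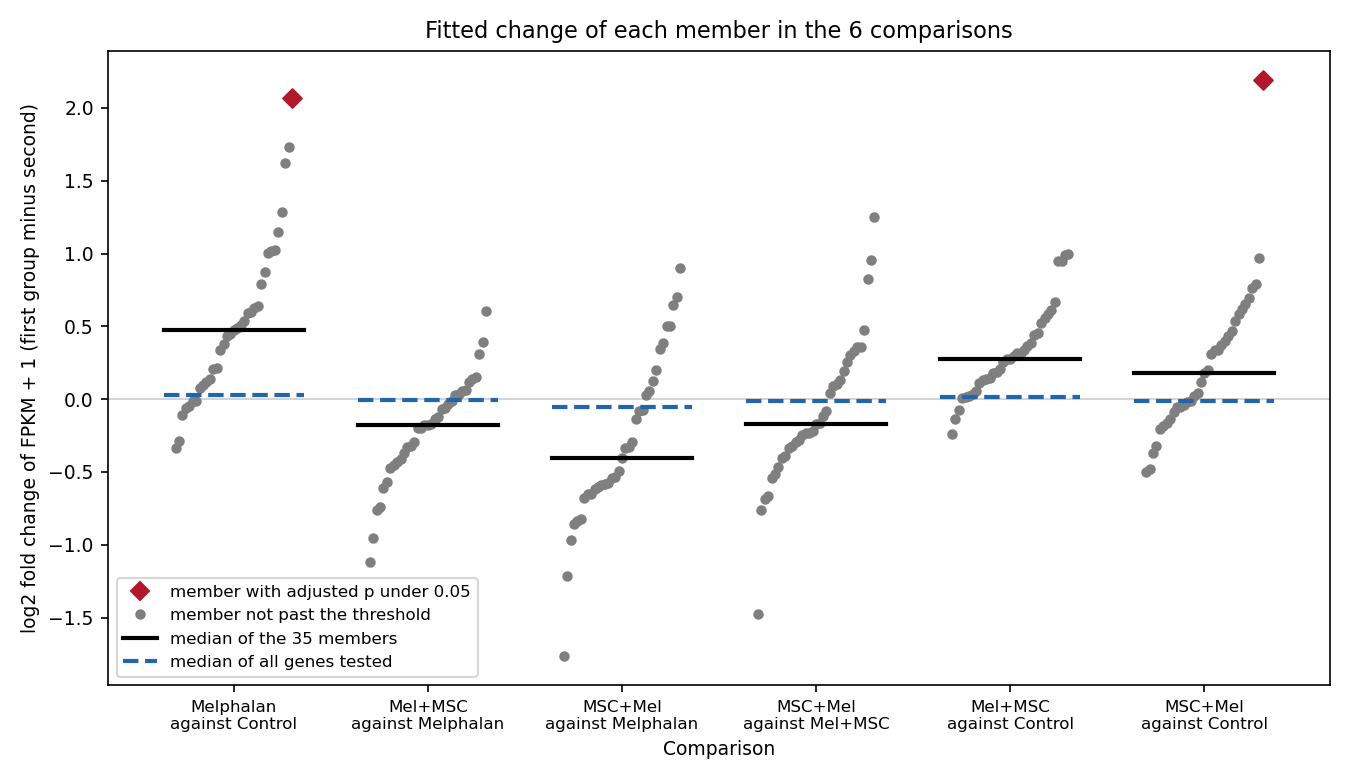
Each point is the fitted log2 difference (log2 of FPKM + 1, first group minus second) of 1 of the 35 genes, sorted within each of the 6 comparisons. Solid lines are the medians of the 35 genes, dashed lines those of all 12847 genes, and the diamonds are the 2 calls, both Acox2.

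Among the regulators, Creb3l3 stood out. It encodes a membrane-bound transcription factor of liver and intestine that acts with PPAR alpha on fasting genes. Its level was 229.9, 150.1 and 250.1 FPKM in Melphalan libraries, against 104, 96 and 139 FPKM in Control libraries, a log2 difference of 0.87 (SE 0.25, adjusted p = 0.103). Its groups did not overlap, and Melphalan replicate 2 was nearest to Control. Without that library the adjusted p was 0.0406. Ppara had 6.03, 10.3 and 9.69 FPKM in Melphalan libraries and 12.9, 7.90 and 6.08 FPKM in Control libraries, and these overlapped throughout. Ppargc1a, the coactivator that drives mitochondrial oxidation genes, had 7.87, 10.8 and 11.9 FPKM in Melphalan libraries and 12, 12.1 and 14.8 FPKM in Control libraries. Every Melphalan library was below every Control library for Ppargc1a, by a narrow margin.

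In the carnitine shuttle, 3 of 4 genes lay above 0 and none was called, the unadjusted threshold being passed by 1. Slc25a20, the carrier across the inner membrane, had 69.6, 45.6 and 83.9 FPKM in Melphalan libraries and 37.2, 37.8 and 53.8 FPKM in Control libraries, a log2 difference of 0.59 (SE 0.25, adjusted p = 0.241). Melphalan replicates 1 and 3 were above all Control libraries, and replicate 2 was not. Cpt1a, the outer-membrane enzyme that commits fatty acids to oxidation, had 19.5, 20.1 and 27.6 FPKM in Melphalan libraries and 39.4, 22.2 and 22.8 FPKM in Control libraries, with its single high value in Control replicate 1. Cpt2, which regenerates acyl-CoA inside the mitochondrion, had 203, 73.9 and 118 FPKM in Melphalan libraries and 94.8, 66.3 and 109 FPKM in Control libraries. The Cpt2 groups overlapped, with Melphalan replicate 1 far above the rest. Crat, which moves acetyl groups on and off carnitine, averaged 57.2 ± 9.54 FPKM in Melphalan and 40.4 ± 9.77 FPKM in Control (mean ± SD, n = 3 each, as for every mean that follows).

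Of the 8 genes of the mitochondrial spiral, 7 lay above 0, with a median difference of 0.41. Acadl, the long-chain acyl-CoA dehydrogenase, had 144, 66.6 and 205 FPKM in Melphalan libraries and 37.3, 89.6 and 52.3 FPKM in Control libraries, a log2 difference of 1.15 (SE 0.41, adjusted p = 0.171). Melphalan replicates 1 and 3 were the highest of all 12 libraries, and replicate 2 was below Control replicate 2. Without Melphalan replicate 2, Acadl passed the threshold (adjusted p = 0.0442). Acadvl, the very-long-chain dehydrogenase, had 127, 71.3 and 134 FPKM in Melphalan libraries and 67.2, 62.1 and 104 FPKM in Control libraries. Hadha, the alpha subunit of the trifunctional protein, had 115, 101 and 153 FPKM in Melphalan libraries and 90.1, 82 and 109 FPKM in Control libraries. Its beta subunit Hadhb had 175, 90.5 and 151 FPKM in Melphalan libraries and 140.5, 117 and 151 FPKM in Control libraries. For Acadvl, Hadha and Hadhb the 2 groups overlapped.

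The genes Hadha (chr5:30118304-30155162, minus strand) and Hadhb (chr5:30155248-30184593, plus strand) lie head to head with 85 bases between them (GRCm38, GENCODE M21). Their products join in 1 complex. The ratio of Hadhb to Hadha FPKM was 1.52, 0.899 and 0.989 in Melphalan libraries, against 1.56, 1.42 and 1.38 in Control libraries. Replicates 2 and 3 of Melphalan had the lowest ratios of the 12 libraries, and replicate 1 lay within the Control range. The remaining spiral genes also overlapped between the groups. Acadm, the medium-chain dehydrogenase, averaged 113 ± 29.2 FPKM in Melphalan and 85 ± 33.5 FPKM in Control. Acads, the short-chain dehydrogenase, averaged 47 ± 10.5 FPKM in Melphalan and 43.8 ± 8.58 FPKM in Control. Acaa2, the mitochondrial thiolase, averaged 209 ± 58.1 FPKM in Melphalan and 125 ± 49.7 FPKM in Control, and the abundant Hadh averaged 609 ± 168 FPKM in Melphalan and 526 ± 159 FPKM in Control.

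The electron transfer and auxiliary genes differed less, with a median difference of 0.12 over 5 genes. Etfb had 274, 159.5 and 296 FPKM in Melphalan libraries and 157, 139.6 and 192 FPKM in Control libraries, again with Melphalan replicates 1 and 3 high and replicate 2 within the Control range. Its partner subunit Etfa averaged 170.4 ± 51.4 FPKM in Melphalan and 156 ± 45.8 FPKM in Control. Etfdh, which hands their electrons to ubiquinone, averaged 44 ± 13.2 FPKM in Melphalan and 44.7 ± 8.58 FPKM in Control. Decr1 and Eci1 prepare unsaturated fatty acids for the spiral. Decr1 averaged 60.5 ± 17.4 FPKM in Melphalan and 54 ± 11.6 FPKM in Control, and Eci1 averaged 51.3 ± 9.58 FPKM in Melphalan and 53.2 ± 7.19 FPKM in Control. All 5 genes overlapped between the groups.

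Of the peroxisomal genes beside Acox2, both thiolases lay high. Counting Acox2, 8 of 9 lay above 0, with a median of 0.60. The thiolase Acaa1b had 48.4, 41.1 and 67.3 FPKM in Melphalan libraries, against 19.3, 7.57 and 27.1 FPKM in Control libraries, a log2 difference of 1.62 (SE 0.46, adjusted p = 0.10). Its copy Acaa1a had 242, 201 and 273 FPKM in Melphalan libraries, against 113, 79.9 and 173 FPKM in Control libraries, a log2 difference of 1.02 (SE 0.30, adjusted p = 0.108). Neither gene's groups overlapped, and Acaa1a passed the threshold without Control replicate 3 (adjusted p = 0.0381). The transcripts of the pair are 96.6% identical over 1428 aligned bases, so the split of reads between them is uncertain. Hsd17b4, the D-bifunctional enzyme of the peroxisomal spiral, averaged 176 ± 43.5 FPKM in Melphalan and 113 ± 33.4 FPKM in Control, a log2 difference of 0.64 (SE 0.27, adjusted p = 0.245). Pex11a, which promotes division of peroxisomes, averaged 32.5 ± 6.59 FPKM in Melphalan and 21.4 ± 6.12 FPKM in Control, a log2 difference of 0.60 (SE 0.25, adjusted p = 0.231). Both genes overlapped between the groups through Melphalan replicate 2.

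Other peroxisomal genes differed less than the spread between libraries. Ehhadh, the L-bifunctional enzyme and a textbook PPAR alpha target in rodent liver, had 52.9, 43.3 and 58.3 FPKM in Melphalan libraries and 53.7, 44.9 and 69.3 FPKM in Control libraries. Eci2, an enoyl-CoA isomerase, had 34.9, 33.3 and 43.1 FPKM in Melphalan libraries and 27.1, 37 and 42.3 FPKM in Control libraries. Decr2, a peroxisomal dienoyl-CoA reductase, averaged 43.8 ± 14.4 FPKM in Melphalan and 37.2 ± 10.1 FPKM in Control. Abcd3 averaged 245 ± 99.1 FPKM in Melphalan and 173 ± 60.2 FPKM in Control, with an SD in Melphalan that exceeded the difference. None of these 4 reached an unadjusted p under 0.05.

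Both acyl-CoA thioesterases, which free fatty acids from CoA, lay above 0. Acot1 of the cytosol had 36, 5.95 and 32.3 FPKM in Melphalan libraries, against 5.60, 3.77 and 6.44 FPKM in Control libraries, a log2 difference of 1.73 (SE 0.56, adjusted p = 0.136). Melphalan replicates 1 and 3 were far above all Control values, while replicate 2 lay within the Control range, and without it the adjusted p was 0.0157. The mitochondrial Acot2 averaged 7.93 ± 2.0 FPKM in Melphalan and 3.37 ± 0.644 FPKM in Control, a log2 difference of 1.02 (SE 0.30, adjusted p = 0.111), with no overlap. The 2 transcripts are 94.3% identical over 1330 aligned bases, so these values share the doubt named for the thiolases.

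All 4 further PPAR alpha targets lay above 0 without passing the threshold. Angptl4, a secreted inhibitor of lipoprotein lipase, had 45.6, 52 and 71.6 FPKM in Melphalan libraries, against 36.8, 6.29 and 44 FPKM in Control libraries, a log2 difference of 1.29 (SE 0.54, adjusted p = 0.237). Its groups did not overlap, and Control replicate 2 was far below the other Control libraries. Pdk4, a kinase that shuts off pyruvate dehydrogenase when fat is burned, had 27.6, 15.6 and 23 FPKM in Melphalan libraries and 18.1, 3.33 and 16 FPKM in Control libraries, and Control replicate 2 was again the low one. Plin2, a coat protein of lipid droplets, had 106, 58.9 and 97.2 FPKM in Melphalan libraries and 60.3, 50.7 and 96.7 FPKM in Control libraries. Cyp4a10 had 1.61, 0.386 and 2.23 FPKM in Melphalan libraries and 0.645, 0.104 and 0.761 FPKM in Control libraries. The Pdk4, Plin2 and Cyp4a10 groups overlapped.

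**Figure D3:**
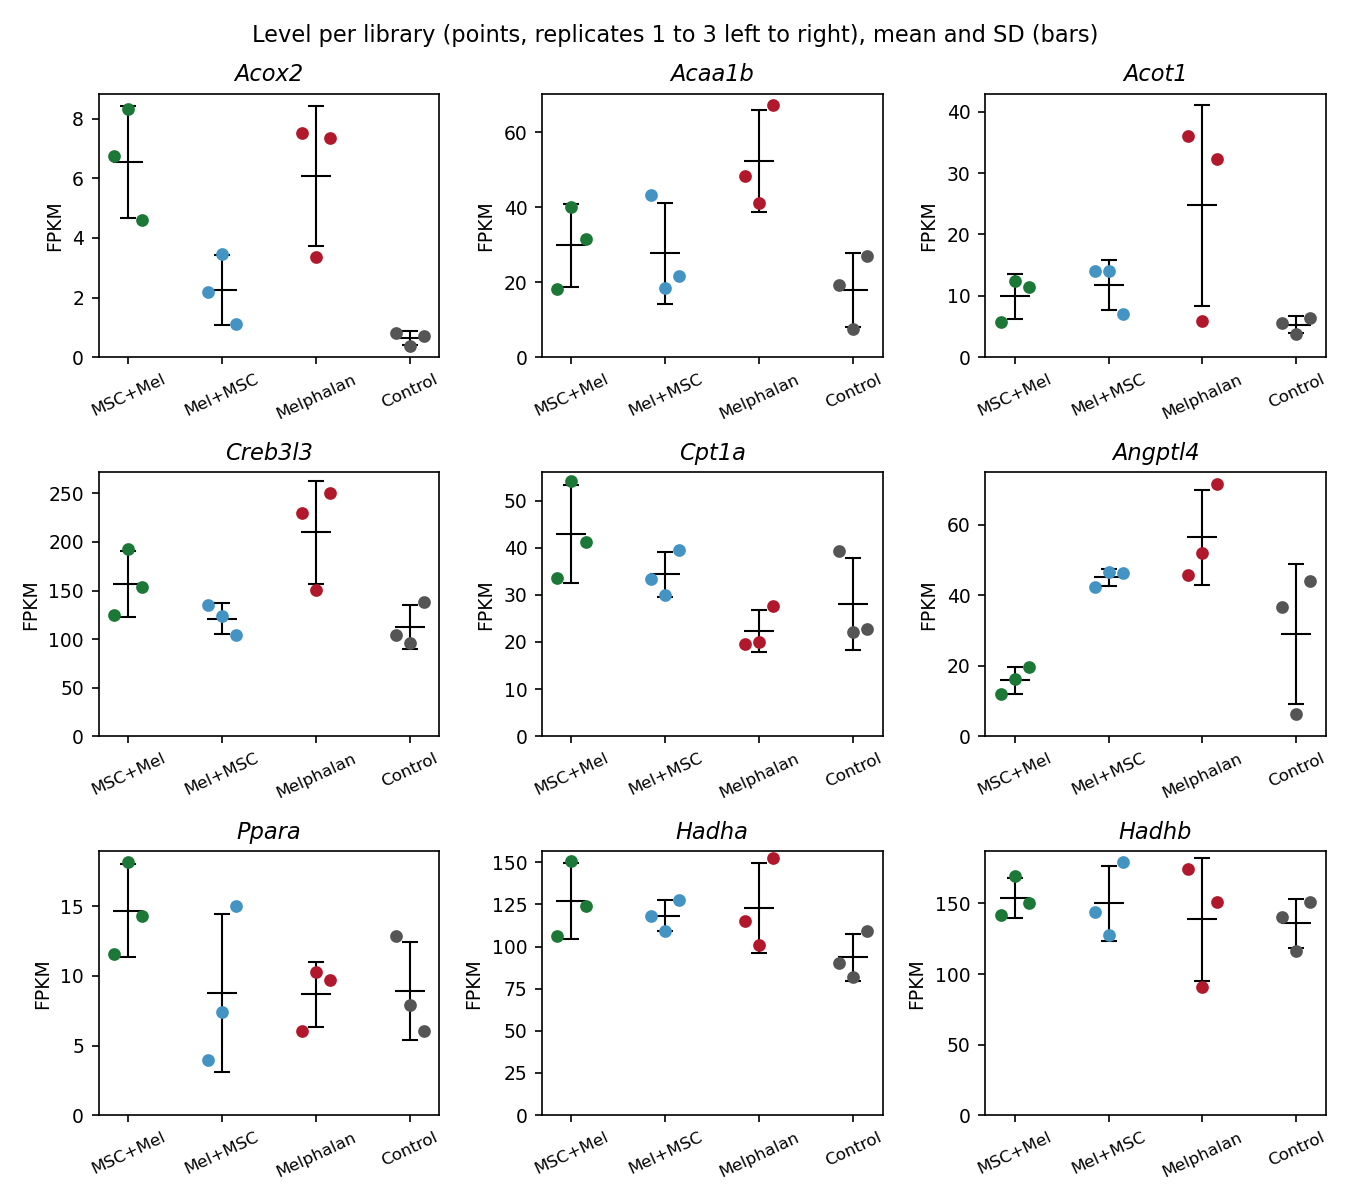
Points are FPKM per library (linear axes from 0) for 9 of the genes in MSC+Mel, Mel+MSC, Melphalan and Control, with the mean and SD of 3 libraries. Acox2 lies under 1 FPKM in every Control library and between 3.36 and 8.34 FPKM in Melphalan and MSC+Mel.

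The same library was often the lowest or the highest of its group across the 35 genes, least so in Mel+MSC. In Melphalan, replicate 2 was the lowest of its group for 30 of the 35 genes. In Control, replicate 2 was the lowest for 25 and replicate 3 the highest for 27. In MSC+Mel, replicate 2 was the highest for 29 and replicate 1 the lowest for 24. Mel+MSC was mixed, with replicate 1 the highest for 19, replicate 3 the lowest for 17 but the highest for 12, and replicate 2 the lowest for 15. The mean of log2(FPKM + 1) over the 35 genes was 5.33, 5.84 and 5.56 in MSC+Mel, 5.85, 5.55 and 5.60 in Mel+MSC, 6.02, 5.45 and 6.14 in Melphalan and 5.36, 5.01 and 5.65 in Control. Melphalan replicate 2 lay within the Control range, and Control replicate 2 was the lowest of its own group. Between same-numbered libraries, Melphalan minus Control was 0.66, 0.45 and 0.49 for replicates 1 to 3, all above 0. The labels do not state that the numbers pair libraries, and Melphalan replicate 2 (5.45) was below Control replicate 3 (5.65). Without Melphalan replicate 2 the median difference of the 35 genes from Control was 0.76 and 4 genes were called, Acox2, Acot1, Creb3l3 and Acadl. Without Melphalan replicate 1 the median was 0.36, and without Melphalan replicate 3 it was 0.37. The share of all genes called without Melphalan replicate 2 is not given here. With single libraries left out, 9 to 423 of all genes tested were called in this comparison, against 171 with all 12.

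Markers of several cell types also differed between the groups, some on the same side as the 35 genes and some on the other. Enterocyte markers, 13 genes of 13 tested, summed to 14551 to 16719.7 FPKM in MSC+Mel, 11838 to 23655 FPKM in Mel+MSC, 21370.4 to 38742 FPKM in Melphalan and 12327 to 21396 FPKM in Control. Their mean log2(FPKM + 1) was 9.46 ± 0.104 in MSC+Mel, 9.33 ± 0.166 in Mel+MSC, 9.99 ± 0.456 in Melphalan and 9.32 ± 0.369 in Control. In Melphalan it was 10.2, 9.46 and 10.3, with replicate 2 again the lowest. In Mel+MSC against Control, 6 of the 13 lay above 0 and 7 below (median -0.047), where 32 of the 35 genes lay above. In MSC+Mel against Control, 8 of the 13 lay above 0 (median 0.16), and 21 of the 35 genes. All 13 lay above 0 in Melphalan against Control (median 0.49, 0 called). Of 7 markers of dividing cells, 4 were called lower in that comparison (Ccnb2, Ccna2, Cdk1 and Top2a), and the list median was -1.56. Their summed FPKM was 174 to 213 in MSC+Mel, 160.4 to 183 in Mel+MSC, 43.3 to 86.7 in Melphalan and 137 to 259.8 in Control. Red cell markers had a median of -2.37 in Melphalan against Control, with 2 of the 4 tested called lower (Hba-a1 and Hba-a2). Crypt stem and progenitor markers lay below 0 in 4 of 4 tested (median -0.62, Olfm4 called), Paneth markers in 5 of 5 (median -1.28, Ang4 called) and goblet markers in 6 of 6 (median -0.62, 0 called). Of 2 tested skeletal muscle markers, Acta1 was called higher and Ckm lay below 0. Of 4 tested markers each, those of the proximal small intestine lay below 0 in 3 (median -0.58, 0 called) and those of the distal small intestine above 0 in all 4 (median 0.65, 0 called). B cell markers summed to 0.851 to 392 FPKM in Melphalan and 2.37 to 38.6 FPKM in Control, the highest sum being that of Melphalan replicate 2. The part of these cell types and of the segment in the levels of the 35 genes was not tested.

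Adipocytes also express Plin2, Angptl4 and Pdk4. The summed FPKM of 7 adipocyte markers was 72.6 to 119.9 in MSC+Mel, 76.2 to 116 in Mel+MSC, 69.9 to 367 in Melphalan and 65.7 to 73.1 in Control. The highest sum was that of Melphalan replicate 1, with 175 FPKM of Fabp4 and 21.2 FPKM of Adipoq, and none of the 6 tested was called in any comparison. In that library Plin2 and Pdk4 were at their highest of the 12 libraries, and Angptl4 was at its lowest within Melphalan. The part of adipocytes in these levels was not tested. The clock genes Dbp and Nr1d2 bear on the time of sampling, and PPAR alpha targets are known to cycle over the day in mouse tissues. These 2 were picked from a list of 14 clock genes, of which 13 were in the table and 11 were tested. In Melphalan against Control, 6 of the 11 lay above 0 and 5 below, with a median of 0.24 and 0 called. This count by sign cannot show whether sampling time differed. Arntl was at 8.64 to 12.1 FPKM in Melphalan and 4.58 to 10.6 FPKM in MSC+Mel, with 17.8 to 22.5 FPKM in Control. Nr1d1 was at 13.97 to 24.4 FPKM in Melphalan and 33.2 to 37.8 FPKM in MSC+Mel, with 0.772 to 10.1 FPKM in Control. So Arntl lay lower and Nr1d1 higher, without overlap with Control. Clock and Npas2 overlapped between Melphalan and Control. Dbp averaged 15 ± 10.8 FPKM in MSC+Mel, 2.09 ± 1.96 FPKM in Mel+MSC, 7.69 ± 0.830 FPKM in Melphalan and 0.685 ± 0.156 FPKM in Control, and Nr1d2 averaged 19.3 ± 4.41 FPKM in MSC+Mel, 7.85 ± 3.73 FPKM in Mel+MSC, 12.5 ± 2.71 FPKM in Melphalan and 4.42 ± 1.46 FPKM in Control. Neither passed the threshold in any comparison, and the part of sampling time was not tested.

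**Figure D4:**
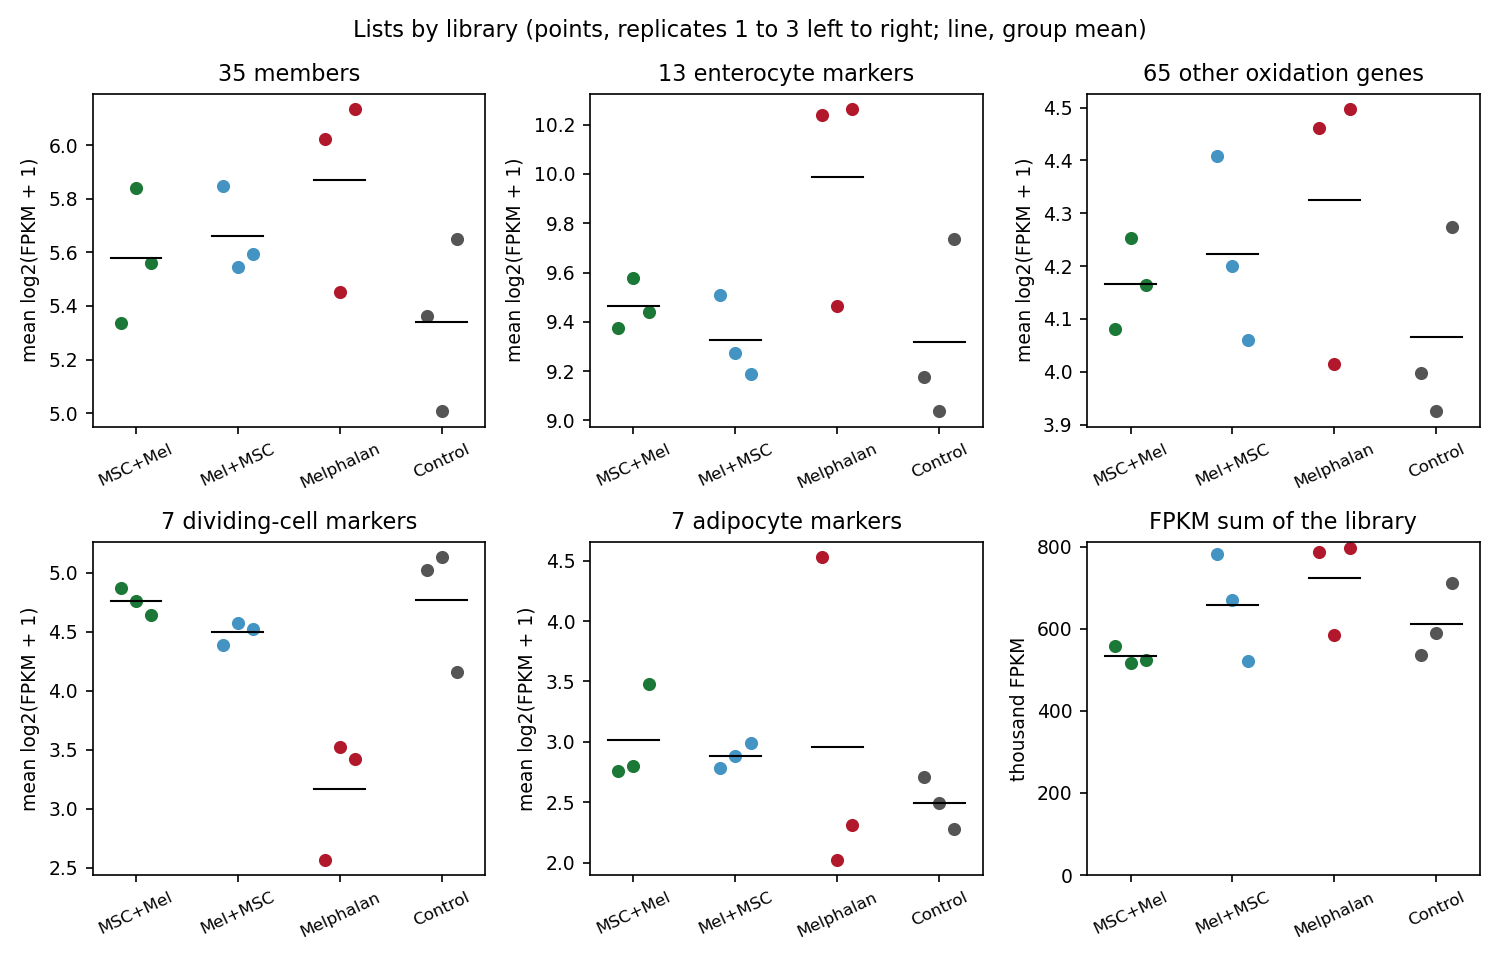
Points are libraries and lines group means: the mean log2(FPKM + 1) of the 35 genes, of 4 other lists, and the FPKM sum of the library. Melphalan replicate 2, the middle Melphalan point, lies low for the 35 genes, the enterocyte markers and the FPKM sum alike.

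MSC+Mel and Mel+MSC against Melphalan ask what was different where the cells had been given as well. They share the Melphalan libraries with each other and with the comparison above, and their values are given side by side. For MSC+Mel against Melphalan, limma called 0 of the 35 genes, against 1.24% of all genes, and 10 (28.6%) had an unadjusted p under 0.05, against 22.2% of all genes. Of the 35, 11 lay above 0 (31.4%, against 45.9% of all genes) and 24 below, with a median of -0.41, against -0.053 over all genes. The side of 0 depended on the scaling: with every library brought to 1 FPKM sum, all genes had a median of 0.32 and the 35 genes one of 0.017, with 18 above 0. Under both scalings the median of the 35 genes was below that of all genes. Libraries did not overlap for 8 lower genes (22.9%, against 17.2% of all genes) and for 5 higher ones (14.3%, against 16.3%), which is near the background. For Mel+MSC against Melphalan, limma also called 0 of the 35, against 0.156% of all genes, with 3 (8.57%) at an unadjusted p under 0.05, against 13.6%. There 10 of the 35 lay above 0 (28.6%, against 49% of all genes) and 25 below, with a median of -0.18, against -0.0075 over all genes. After the FPKM-sum scaling, 16 lay above 0 and the medians were -0.037 for the 35 genes and 0.11 for all genes. Libraries did not overlap for Cpt1a and Eci2 on the higher side (5.71%, against 8.37% of all genes) and for Creb3l3 on the lower (2.86%, against 5.91%).

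Cpt1a was the gene with the smallest p in MSC+Mel against Melphalan, and it lay on the higher side. It had 33.6, 54.2 and 41.3 FPKM in MSC+Mel libraries, against 19.5, 20.1 and 27.6 FPKM in Melphalan libraries, a log2 difference of 0.90 (SE 0.26, adjusted p = 0.0898). In Mel+MSC libraries it had 33.3, 30.1 and 39.6 FPKM, a log2 difference of 0.60 (SE 0.26, adjusted p = 0.343) against Melphalan. Every library of either combined group was above every Melphalan library, and the Control libraries overlapped all 3 groups. Slc25a20 had 35.4, 49.5 and 41.3 FPKM in MSC+Mel libraries and 67.2, 68.2 and 50.1 FPKM in Mel+MSC libraries, a log2 difference of -0.62 (SE 0.25, adjusted p = 0.186) for MSC+Mel against Melphalan. Cpt2 had 91.5, 113 and 84.8 FPKM in MSC+Mel libraries and 151, 112 and 102 FPKM in Mel+MSC libraries, within the wide Melphalan range. Crat averaged 58.9 ± 13.4 FPKM in MSC+Mel and 45.8 ± 11.4 FPKM in Mel+MSC.

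Among the regulators, Ppara and Ppargc1a were on the same side as Cpt1a. Ppara had 11.6, 18.2 and 14.3 FPKM in MSC+Mel libraries and 3.94, 7.37 and 15 FPKM in Mel+MSC libraries, against 6.03, 10.3 and 9.69 FPKM in Melphalan libraries. The MSC+Mel libraries did not overlap the Melphalan ones for Ppara, and the Mel+MSC libraries spanned them. Ppargc1a had 14.4, 15.6 and 19.2 FPKM in MSC+Mel libraries, against 7.87, 10.8 and 11.9 FPKM in Melphalan libraries, a log2 difference of 0.65 (SE 0.25, adjusted p = 0.167), with no overlap. In Mel+MSC libraries it had 12.8, 9.52 and 20.1 FPKM. Creb3l3 lay on the other side, with 125, 193 and 153 FPKM in MSC+Mel libraries and 136, 124 and 104 FPKM in Mel+MSC libraries. All Mel+MSC libraries were below all Melphalan libraries for Creb3l3, a log2 difference of -0.76 (SE 0.25, adjusted p = 0.238), whereas those of MSC+Mel overlapped them.

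Angptl4 and Etfb had the next smallest p-values in MSC+Mel against Melphalan, on the lower side. Angptl4 had 11.9, 16.3 and 19.5 FPKM in MSC+Mel libraries, against 45.6, 52 and 71.6 FPKM in Melphalan libraries, a log2 difference of -1.76 (SE 0.54, adjusted p = 0.106). All 3 MSC+Mel libraries were below all Melphalan libraries, and also below Control replicates 1 and 3. The adjusted p was 0.0301 in a fit of the 2 groups alone and 0.0145 without Control replicate 2, whose Angptl4 was far below its group. Etfb had 124, 129 and 134 FPKM in MSC+Mel libraries, against 274, 159.5 and 296 FPKM in Melphalan libraries, a log2 difference of -0.86 (SE 0.27, adjusted p = 0.113). No MSC+Mel library reached the lowest Melphalan library, and the call was made without Melphalan replicate 2 (adjusted p = 0.0414). In Mel+MSC libraries, Angptl4 had 42.4, 46.7 and 46.3 FPKM and Etfb 283, 194 and 164 FPKM, both overlapping Melphalan.

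The peroxisomal genes split. Eci2 had 48.3, 64.1 and 47.4 FPKM in MSC+Mel libraries and 47.8, 46.6 and 43.7 FPKM in Mel+MSC libraries, against 34.9, 33.3 and 43.1 FPKM in Melphalan libraries, a log2 difference of 0.51 (SE 0.20, adjusted p = 0.175) for MSC+Mel against Melphalan. Both combined groups were above all Melphalan libraries. Ehhadh had 61.1, 75.7 and 83.7 FPKM in MSC+Mel libraries, above all Melphalan libraries, and 49.96, 38.7 and 73.2 FPKM in Mel+MSC libraries, which spanned them. Acaa1a was on the lower side, with 142, 164 and 137 FPKM in MSC+Mel libraries and 247, 161 and 135 FPKM in Mel+MSC libraries, a log2 difference of -0.68 (SE 0.30, adjusted p = 0.208) for MSC+Mel against Melphalan. For Acaa1a, Mel+MSC replicate 1 lay within the Melphalan range and the other Mel+MSC libraries below it. Hsd17b4 averaged 111 ± 25.8 FPKM in MSC+Mel and 134 ± 14 FPKM in Mel+MSC, a log2 difference of -0.65 (SE 0.27, adjusted p = 0.196) for MSC+Mel against Melphalan. Pex11a averaged 21.3 ± 3.13 FPKM in MSC+Mel and 24.3 ± 5.77 FPKM in Mel+MSC, a log2 difference of -0.57 (SE 0.25, adjusted p = 0.204) for MSC+Mel against Melphalan. Acaa1a and Pex11a did not overlap Melphalan in MSC+Mel, and Hsd17b4 did. Acaa1b had 18, 39.96 and 31.6 FPKM in MSC+Mel libraries, below all Melphalan libraries, and 43.2, 18.5 and 21.6 FPKM in Mel+MSC libraries. Abcd3 averaged 159 ± 17.6 FPKM in MSC+Mel and 202 ± 28.2 FPKM in Mel+MSC, and Decr2 averaged 34.2 ± 2.96 FPKM in MSC+Mel and 40.5 ± 5.42 FPKM in Mel+MSC.

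Acox2, called in the drug comparison, had 6.76, 8.34 and 4.59 FPKM in MSC+Mel libraries, which overlapped Melphalan, and 2.19, 3.48 and 1.11 FPKM in Mel+MSC libraries. Against Melphalan, Mel+MSC gave a log2 difference of -1.12 (SE 0.33, adjusted p = 0.201), where Mel+MSC replicate 2 overlapped Melphalan replicate 2. MSC+Mel against Mel+MSC gave a log2 difference of 1.25 (SE 0.33, adjusted p = 0.249) and no overlap. Acox2 had the smallest p of the 35 genes in that comparison of the combined groups without passing its threshold.

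Within the mitochondrial spiral, 6 of 8 genes lay below 0 in MSC+Mel against Melphalan, with a median of -0.52, and 5 of 8 in Mel+MSC against Melphalan, with a median of -0.087. Hadha had 106, 151 and 124 FPKM in MSC+Mel libraries and 118, 109 and 127 FPKM in Mel+MSC libraries. Hadhb had 142, 169 and 151 FPKM in MSC+Mel libraries and 144, 127 and 179 FPKM in Mel+MSC libraries. Both overlapped Melphalan in either combined group. Acadl had 70.1, 127 and 77.9 FPKM in MSC+Mel libraries and 108, 108 and 112 FPKM in Mel+MSC libraries, between the high and the low Melphalan libraries. Acadvl had 63.1, 81.3 and 75.8 FPKM in MSC+Mel libraries and 151, 115 and 91 FPKM in Mel+MSC libraries. Its Mel+MSC libraries were all above its MSC+Mel libraries, and both groups overlapped Melphalan. Hadh averaged 396 ± 30.4 FPKM in MSC+Mel and 531 ± 117 FPKM in Mel+MSC, and Acadm averaged 72.3 ± 2.29 FPKM in MSC+Mel and 105 ± 41.2 FPKM in Mel+MSC. Those 2 genes did not overlap between MSC+Mel and Melphalan. Acads averaged 42 ± 3.24 FPKM in MSC+Mel and 47.6 ± 4.45 FPKM in Mel+MSC, and Acaa2 averaged 141 ± 52.9 FPKM in MSC+Mel and 153 ± 56.3 FPKM in Mel+MSC.

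The remaining electron transfer and auxiliary genes all overlapped Melphalan in both combined groups. Decr1 averaged 46.6 ± 0.664 FPKM in MSC+Mel and 62.5 ± 14.5 FPKM in Mel+MSC, and Eci1 averaged 48.1 ± 1.46 FPKM in MSC+Mel and 45.9 ± 12.8 FPKM in Mel+MSC. The spread of both genes was far wider in Mel+MSC. Etfa averaged 156 ± 13.4 FPKM in MSC+Mel and 187 ± 56.6 FPKM in Mel+MSC, and Etfdh averaged 56.6 ± 8.38 FPKM in MSC+Mel and 44.9 ± 6.64 FPKM in Mel+MSC. Acot1 had 5.76, 12.5 and 11.5 FPKM in MSC+Mel libraries and 14.1, 14.1 and 7.08 FPKM in Mel+MSC libraries, so none reached Melphalan replicates 1 and 3. Acot2 averaged 4.76 ± 1.62 FPKM in MSC+Mel, with no overlap with Melphalan, and 5.21 ± 2.18 FPKM in Mel+MSC.

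Of the further PPAR alpha targets, Plin2 had 39.1, 61.7 and 42.8 FPKM in MSC+Mel libraries and 98.4, 69.6 and 44.9 FPKM in Mel+MSC libraries, against 106, 58.9 and 97.2 FPKM in Melphalan libraries, a log2 difference of -0.84 (SE 0.34, adjusted p = 0.187) for MSC+Mel against Melphalan. Pdk4 had 3.24, 18.7 and 9.94 FPKM in MSC+Mel libraries and 18.7, 8.56 and 22.6 FPKM in Mel+MSC libraries, with MSC+Mel replicate 1 the lowest of the 12. Cyp4a10 had 0.729, 4.96 and 1.31 FPKM in MSC+Mel libraries and 1.27, 0.137 and 0.276 FPKM in Mel+MSC libraries, and MSC+Mel replicate 2 held the highest value of the 12. All 3 genes overlapped Melphalan in both combined groups.

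MSC+Mel against Mel+MSC compares the 2 word orders. limma called 0 of the 35 genes, against 0.00778% (1 gene) of all genes, and 4 (11.4%) had an unadjusted p under 0.05, against 12.2% of all. Beside Acox2, the 3 others were lower in MSC+Mel: Angptl4 with a log2 difference of -1.47 (SE 0.54, adjusted p = 0.357), Etfb with a log2 difference of -0.69 (SE 0.27, adjusted p = 0.374) and Acadvl with a log2 difference of -0.66 (SE 0.29, adjusted p = 0.403). Their libraries did not overlap between these groups. In all, 8 genes did not overlap on the lower side (22.9%, against 11.8% of all genes): those 3 with Slc25a20, Decr1, Hadh, Abcd3 and Acads. On the higher side only Acox2 did not overlap (2.86%, against 11.7%). Of the 35, 14 lay above 0 (40%, against 48.6% of all genes), with a median of -0.17, against -0.013 over all genes. With libraries scaled to 1 FPKM sum the median was 0.10, with 22 above 0, where all genes had 0.24.

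Against Control, MSC+Mel again showed Acox2 higher. It was the 1 call among the 35 genes (2.86%, against 0.171% of all genes, or 0.0623% counting higher calls alone), with a log2 difference of 2.19 (SE 0.33, adjusted p = 0.0374). The same Control libraries, all under 1 FPKM, stand in both Acox2 calls, and Acox2 passed the filter only through treated libraries. The call was lost without any 1 of the Control libraries (adjusted p = 0.0996, 0.131 and 0.107 for replicates 1 to 3), without any 1 of the MSC+Mel libraries (0.127, 0.240 and 0.0707) and without Mel+MSC replicate 1 (0.0561). Over all alternatives it ranged between 0.00227 and 0.240. Eci2 came next, with a log2 difference of 0.58 (SE 0.20, adjusted p = 0.297) and no overlap, and then Cpt1a, with a log2 difference of 0.62 (SE 0.26, adjusted p = 0.381), where Control replicate 1 overlapped. Of the 35 genes, 21 lay above 0 and 14 below, where 48.8% of all genes lay above, with a median of 0.18, against -0.011 over all. Without MSC+Mel replicate 2, the median was -0.0019, without Control replicate 2 it was 0.024, and after the FPKM-sum scaling it was 0.37, with 30 above 0. Besides Acox2 and Eci2 on the higher side (5.71%, against 13.4% of all genes), only Etfb did not overlap, on the lower side (2.86%, against 14.4%).

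For Mel+MSC against Control, limma called 0 of the 35 genes and 0% of all genes, and 2 of the 35 (5.71%) had an unadjusted p under 0.05, against 5.4% of all genes. These were Acox2, with a log2 difference of 0.95 (SE 0.33, adjusted p = 0.816), and Acadl, with a log2 difference of 0.95 (SE 0.41, adjusted p = 0.923). Neither overlapped between the groups, nor did Eci2, Acot1 and Hadha, all 5 on the higher side (14.3%, against 5.4% of all genes). No gene of the 35 was without overlap on the lower side, where 5.07% of all genes were. Of the 35, 32 (91.4%) lay above 0, against 52.1% of all genes, with a median of 0.28, against 0.013. Without Control replicate 2 that median was 0.15 and 22 lay above 0. The third smallest p was that of Acadvl, with a log2 difference of 0.61 (SE 0.29, adjusted p = 0.923).

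Further genes of the pathway were read in the same comparisons. Of 67 other fatty acid oxidation genes, 65 were in the table and 61 were tested, and 0 were called in any of the 6 comparisons. In Melphalan against Control, 43 of the 61 lay above 0, with a median of 0.30. The smallest p-values there were those of Slc22a5, the carnitine importer, and Acox3, a peroxisomal oxidase of branched chains. Slc22a5 averaged 56.1 ± 16.2 FPKM in Melphalan and 28.3 ± 5.76 FPKM in Control. Acox3, a relative of Acox2, averaged 25.1 ± 4.88 FPKM in MSC+Mel, 21.4 ± 4.46 FPKM in Mel+MSC, 23 ± 7.23 FPKM in Melphalan and 11.2 ± 3.08 FPKM in Control. In MSC+Mel against Melphalan, Acsm3, an acyl-CoA synthetase of medium chains, averaged 2.99 ± 0.149 FPKM in MSC+Mel and 0.827 ± 0.405 FPKM in Melphalan.

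Of 8 ketone body genes, all in the table and 6 tested, 1 was called: Aacs, the cytosolic ligase that turns ketone bodies towards lipid synthesis, rose in MSC+Mel against Melphalan. It averaged 8.67 ± 1.29 FPKM in MSC+Mel and 3.59 ± 0.761 FPKM in Melphalan, a log2 difference of 1.08 (SE 0.20, adjusted p = 0.0338). Its adjusted p was 0.000306 to 0.141 over the alternatives, and the call was lost without any 1 of MSC+Mel replicates 1 to 3, Melphalan replicates 1 and 3, Mel+MSC replicate 2 or Control replicate 2.

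Of 40 other PPAR alpha targets, all in the table and 28 tested, Fads2 alone was called, in 2 comparisons. This desaturase makes polyunsaturated fatty acids. It fell in Melphalan, with 5.98 ± 1.29 FPKM in Melphalan and 25 ± 10.8 FPKM in Control, a log2 difference of -1.82 (SE 0.32, adjusted p = 0.0239), and blocking on the replicate number gave an adjusted p of 0.0666. That call was also lost without Control replicate 1 or 2, without Melphalan replicate 1 or 3, in a fit of the 2 groups alone (adjusted p = 0.175) and after the FPKM-sum scaling (adjusted p = 0.0542). Over all alternatives its adjusted p was 0.000910 to 0.175. In MSC+Mel against Melphalan, which shares those Melphalan libraries, Fads2 rose, with 28 ± 1.82 FPKM in MSC+Mel and 5.98 ± 1.29 FPKM in Melphalan, a log2 difference of 2.07 (SE 0.32, adjusted p = 0.0244). This second call was lost without any 1 of the MSC+Mel libraries and without Melphalan replicate 1 or 3, and its adjusted p was 0.000214 to 0.115 over all alternatives. Fits with no filter lost both Fads2 calls and the Aacs call. Over the 28 genes, 22 lay above 0 in Melphalan against Control, with a median of 0.53.

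Of 28 receptors, partners and coregulators of PPAR alpha, 27 were tested and 0 were called in any comparison. Their median was -0.12 in Melphalan against Control and 0.34 in MSC+Mel against Melphalan. In the comparison with the smallest p-values, Ncoa1, a receptor coactivator, averaged 9.72 ± 0.657 FPKM in MSC+Mel and 4.90 ± 0.978 FPKM in Melphalan. Hnf4a, a nuclear receptor that binds the same DR1 element, averaged 155 ± 10.3 FPKM in MSC+Mel and 91.3 ± 18.2 FPKM in Melphalan.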

How the data were processed

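Per the labels' protocols, RNA was extracted from small intestine with the QIAamp AllPrep kit and TruSeq libraries were made; strand is not given. Per the submitters' processing notes, STAR, Cufflinks and Cuffnorm were run by the authors on mm10/GRCm38, and versions are not given in the sources used here. The deposited values are FPKM, 1 per gene and library. They did not resolve into whole reads, so the depth and the counting precision are unknown, and precision rests on how far the 3 libraries of each group vary. The comparison of repeated low values by which this was checked gave depths of 0.710 to 1.14 times that of Control replicate 1, but no more than 9.22% of low genes shared that ratio.

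The 35 genes and all gene lists were chosen with earlier results of these data known. Genes reaching 1 FPKM in 3 or more libraries entered the test, and log2(FPKM + 1) was fitted with limma 3.58.1 (R 4.3.3, intensity trend, 1 mean per group, all 12 libraries, 8 residual degrees of freedom) in 6 comparisons. P-values were adjusted by Benjamini-Hochberg over all 12847 genes, and the code was tested on simulated data. Values per library are given for genes called, for the 3 smallest p-values of a comparison and for a set fixed by role. Beyond these, members with an unadjusted p under 0.05 have their fold change printed, and Acaa1a and Acot1 have library values. Other members are given as means. Of the other pathway lists, called genes or the 2 with the smallest p are named, with only some comparisons printed. Some genes that this rule names are not reported here. Coordinates are from GENCODE M21, and promoters from RefSeq, matched by symbol. A comparison of protein sequences was planned for the near-identical pairs; transcripts were aligned instead with Biopython 1.88. Figures were drawn with matplotlib 3.10.9.

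Same-numbered Melphalan and Control libraries deviated together over the genes tested (correlations of 0.124, 0.233 and 0.184). This was treated as possible pairing, although the labels do not state one. With that number as a block, 73 genes were called by limma in that comparison, against 171 without it, and Acox2 was kept (adjusted p = 0.0484). In no other pair of groups did all correlations exceed 0.1. Single correlations there ran from -0.369 to 0.396, so values of this size do not by themselves show pairing. The alternatives were another pseudocount (0.1), no filter on low values, a stricter one (mean of at least 5 FPKM), quantile and median-of-ratios normalization, fits of the 2 groups alone, the replicate block, array weights, each library left out and, added after the data were seen, scaling to the FPKM sum.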

Additional observations from a re-analysis of the deposited data

How the results depend on the processing

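Of the 35 genes, the number called in Melphalan against Control was 1, and it was 0 with no filter, 0 with a mean of 5 FPKM or more (where 33 genes were tested and Acox2 was not) and 0 in a fit of the 2 groups alone. In MSC+Mel against Control it was 1, and it was 0 with no filter, 0 with a mean of 5 FPKM or more and 0 with the replicate block (Acox2 adjusted p = 0.0927). In MSC+Mel against Melphalan it was 0, and it was 1 (Angptl4) in a fit of the 2 groups alone and 2 (Eci2 and Etfdh) after scaling to the FPKM sum, where the median difference was 0.017. With quantile normalization that median was -0.081. Array weights, whose fit did not converge, gave 18 genes in Melphalan against Control (median 0.82), 8 in Mel+MSC against Melphalan, 20 in MSC+Mel against Melphalan, 14 in MSC+Mel against Mel+MSC, 1 in Mel+MSC against Control and 2 in MSC+Mel against Control. The weights differed widely within groups, with 3.11 for Melphalan replicate 3, against 0.400 and 0.202 for replicates 1 and 2. In Mel+MSC, replicate 2 had 5.13, against 0.763 and 0.182 for replicates 1 and 3. The share of all genes called with these weights is not given here, so the counts have no background beside them. The cause of the higher counts was not tested. The replicate block changed no other call among the 35 genes; for Aacs and Fads2 in MSC+Mel against Melphalan the blocked adjusted p was 0.0810 and 0.0674. With 1 library left out at a time, 0 to 4 of the 35 genes were called in Melphalan against Control, 0 to 0 in Mel+MSC against Melphalan, 0 to 2 in MSC+Mel against Melphalan, 0 to 0 in MSC+Mel against Mel+MSC, 0 to 0 in Mel+MSC against Control and 0 to 1 in MSC+Mel against Control. In the same order their medians ran 0.29 to 0.76, -0.37 to -0.033, -0.69 to -0.26, -0.28 to -0.0022, 0.15 to 0.45 and -0.0019 to 0.37. Of all genes tested, the same fits called 9 to 423, 0 to 34, 6 to 941, 0 to 404, 0 to 2 and 0 to 40. Over 37 pairs of a gene and a comparison and all settings, 699 of 772 values kept direction and side of the threshold, 38 lost a call, 35 gained one and 0 changed direction. The pairs were chosen for a small p in these same data, so a kept direction was likely from the start. Most pairs were not called, so most kept values are pairs that stayed uncalled. All 38 lost calls were those of Acox2, Fads2 and Aacs, the only genes called among the pairs. Most of the 35 gained calls came from the array weights, whose fit did not converge.

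Depth is unknown, so the low values of Acox2 and Cyp4a10 have no counting error attached. The 3 libraries per group limit what can be called, and an exact permutation test of 3 against 3 cannot go below p = 0.1.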
